A study of Mus musculus with 9 samples.

Results

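The collagens and laminins are the chains that form the fibres and sheets of the extracellular matrix, and their mRNAs were compared here in mouse embryonic stem (ES) cells with and without the miRNA-processing proteins Dgcr8 and Dicer. Members were the transcript clusters (the units an Affymetrix gene array reports, each a set of probes summarised into 1 value) whose single gene symbol was that of a collagen alpha chain, written Col, a type number, a and a chain number, or of a laminin alpha, beta or gamma chain. The rule found 56 clusters of 54 genes among the 22999 clusters counted, and no cluster with several symbols held a member. Of the 56, 46 were collagens and 10 were laminins, and Col6a5 and Col6a6 had 2 clusters each. By the structure their chains build, 18 belonged to basement membranes (10 laminins and 8 collagens), 11 to banded fibrils, 9 to the fibril-associated (FACIT) collagens, 8 to the beaded filaments of type VI collagen, 3 to network-forming collagens, 1 to anchoring fibrils, 4 to transmembrane collagens and 2 to other types. The FACIT collagen gene Col21a1 was not analysed here.

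RNA came from 3 ES cell lines, wild-type (WT, line v6.5 in the methods), Dgcr8 knockout (KO) and Dicer KO, each hybridised to 3 arrays of 1 colour. Dgcr8 binds the primary miRNA in the Microprocessor and Dicer cuts the released hairpin, so both mutants lack miRNAs that need both steps. The methods speak of 3 biological replicates and the sample records of cells plated in triplicate, so p-values may measure only the technical spread between plates. No source used here gives the culture medium, passage, feeder cells or the origin of the KO lines, and with 1 line per genotype, line and genotype cannot be told apart.

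Basement membranes are thin sheets under epithelia, and an early one in the embryo lies between the epiblast, the source of ES cells, and the primitive endoderm. Laminins are secreted as trimers of an alpha, a beta and a gamma chain and polymerise into a first sheet, a network of type IV collagen forms beside it, and nidogens and the proteoglycan perlecan join them. Fibrillar collagens such as types I, III and V form instead the banded fibrils of connective tissue and are typical of fibroblasts.

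The arrays fitted their labels: the log2 level of Dgcr8 was lowest on the Dgcr8 KO arrays (8.74 to 8.96, against 9.76 or more elsewhere) and that of Dicer1 on the Dicer KO arrays (8.32 to 8.43, against 10.18 or more elsewhere). The array medians lay between 6.49 and 6.56 on the log2 scale, and those of the 3 Dicer KO arrays were the lowest (6.49, against 6.52 or more elsewhere). Of 8 ES cell markers, 5 rose and 1 fell in each mutant relative to WT, with Nanog, a core factor of the pluripotent state, 0.77 higher in Dgcr8 KO and 1.10 higher in Dicer KO on the log2 scale. Of 12 extraembryonic endoderm markers, which label a basement-membrane-producing lineage, Gata4 rose (by 0.35) and Dab2 fell (log2 ratio -1.13) in Dgcr8 KO, and Dab2 (-1.15) and Sox7 (-0.31) fell in Dicer KO. As shares of these 12, 8.33% rose and 8.33% fell in Dgcr8 KO, and 0% rose and 16.7% fell in Dicer KO. The log2 of the summed level of the 12 ran from 9.68 to 9.84 on the WT, 9.57 to 9.74 on the Dgcr8 KO and 9.50 to 9.55 on the Dicer KO arrays. Of 9 fibroblast markers measured, Vim, an intermediate filament gene that ES cells also express, rose by 2.31 and 1.62, and Dcn, a small proteoglycan, fell in Dicer KO (-0.26). As shares of the 9, 11.1% rose and 0% fell in Dgcr8 KO, and 11.1% rose and 11.1% fell in Dicer KO. The 8 fibroblast markers other than Vim summed to 8.62 to 8.76, 8.50 to 8.73 and 8.61 to 8.72 in the same order of genotypes, and Lum, a matrix proteoglycan gene, lay between 3.22 and 3.45 and Postn, a matricellular protein gene, between 3.87 and 4.25 on all 9 arrays.

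Most collagens and laminins did not pass the test in any comparison, and the largest ratios belonged to laminins. Throughout, a log2 ratio is the difference of 2 group means of log2 levels with its standard error (SE), and a cluster counts as called where its limma p, adjusted by the Benjamini-Hochberg method across all 22999 counted clusters, was under 0.05. In Dgcr8 KO relative to WT, 5 of the 56 members rose and 3 fell, where 15.7% of all counted clusters rose and 17.3% fell. In Dicer KO relative to WT, 6 rose and 9 fell, where 17.8% of all counted clusters rose and 19.1% fell. In Dgcr8 KO relative to Dicer KO, 7 were higher and 2 lower, where 11.2% of all counted clusters were higher and 13.4% lower. As shares of the members, these were 8.93% and 5.36%, 10.7% and 16.1%, and 12.5% and 3.57% in the same order. Against WT, the members' shares in this fit lay below those of all clusters in both directions. The share lower in Dicer KO was near the background, and with the replicate number as a block it was 19.6%, against 19.4%. Without WT replicate 1 and Dgcr8 KO replicate 2, the share higher in Dgcr8 KO was 17.9%, against 17.2%. Between the mutants, the share higher in Dgcr8 KO was close to the background here, but this depended on the test and the arrays used. With SAM, the test named in the methods, the count was 18 of 56 (32.1%, against 19.5% of all clusters). It was 17 (30.4%, against 15.5%) with array weights and 11 (19.6%, against 11.4%) with the replicate number as a block. Leaving out both WT replicate 1 and Dgcr8 KO replicate 2 gave 17 (30.4%, against 15.8%). Other settings put the share below the background. The count was 4 (7.14%, against 7.53%) with every deposited cluster and 4 (7.14%, against 7.77%) with arrays centred on the median. Repeated quantile normalisation gave 6 (10.7%, against 13.2%), and leaving out Dicer KO replicate 2 gave 3 (5.36%, against 8.19%). The median log2 ratio of the members was 0.01 in Dgcr8 KO, -0.13 in Dicer KO and 0.12 between the mutants, against -0.01, -0.06 and 0.03 over all counted clusters. The mutants were compared with the same 3 WT arrays, so their ratios against WT are not independent. Lamc1, Lamb2 and Col18a1 rose in both mutants, Lamb1 and both clusters of Col6a5 fell in both, Lama3 rose in Dgcr8 KO but fell in Dicer KO, and 40 members were called in neither mutant. In bulk RNA, a change in the RNA per cell and a change in the share of cells that express a gene cannot be told apart.

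**Figure D1:**
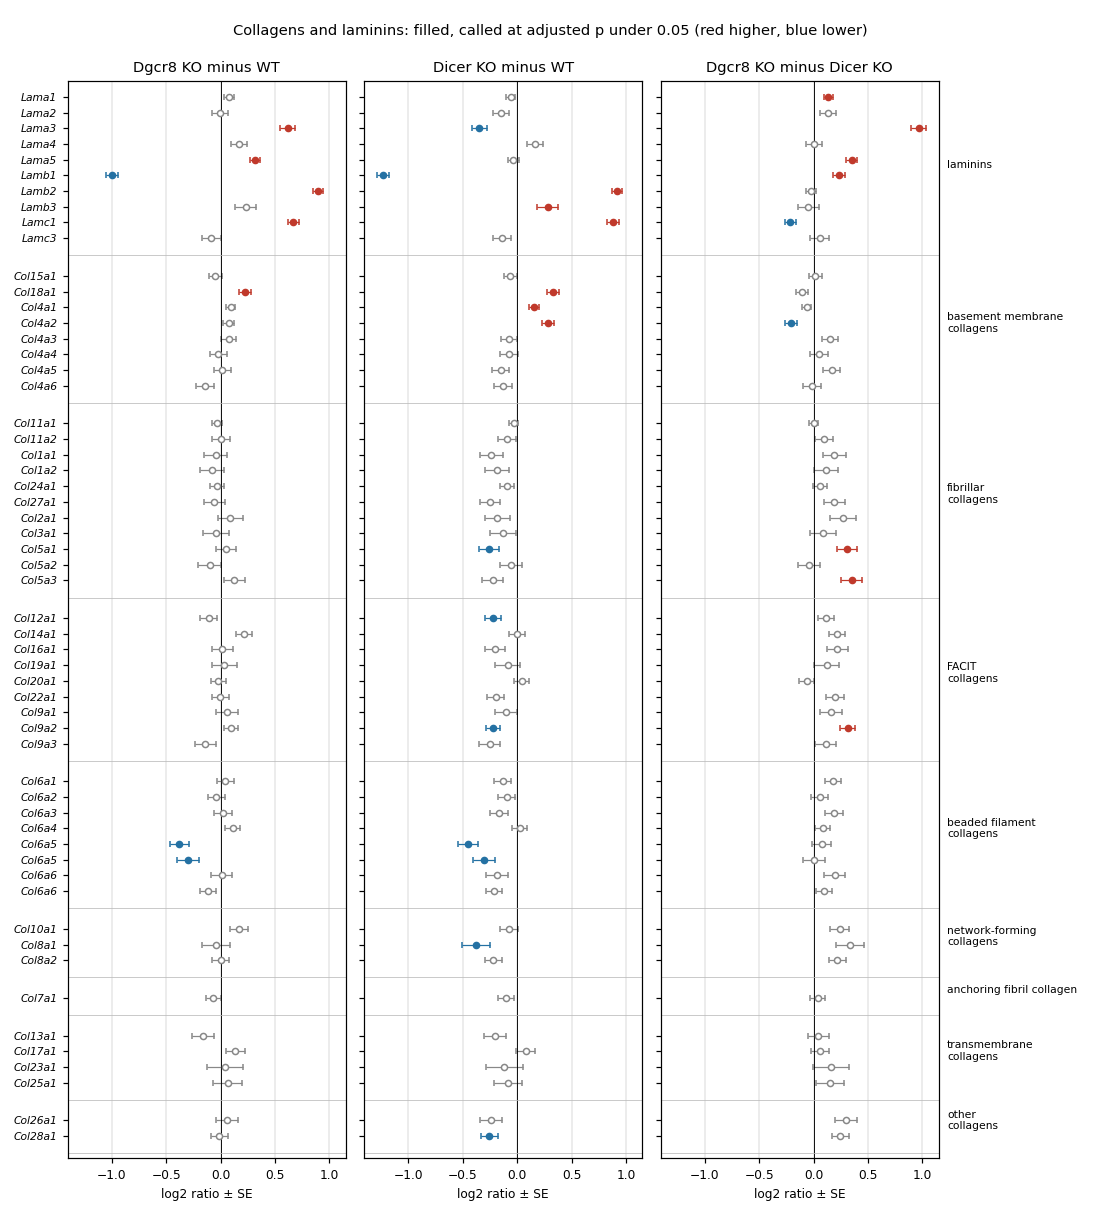
Log2 ratio with its SE for each of the 56 clusters in the 3 comparisons, grouped by the structure the chain builds, with filled points for clusters called by limma at an adjusted p under 0.05. The points far from 0 are Lamb1 on the lower side and Lamb2, Lamc1 and Lama3 on the higher side, while the 11 fibrillar collagens lie between -0.26 and 0.13 in both mutants relative to WT.

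Among laminin beta chains, of which every trimer holds 1, Lamb1 fell and Lamb2 rose in both mutants. Lamb1 encodes the beta chain of the laminins of the early embryo, and Lamb2 encodes the beta chain of laminins known from the glomerulus and the neuromuscular junction. Lamb1 had log2 levels of 10.14, 10.20 and 10.31 in the WT samples, 9.21, 9.20 and 9.24 in those of Dgcr8 KO and 9.0, 8.93 and 9.03 in those of Dicer KO, so that the 3 groups did not overlap. Its log2 ratio was -1.0 (SE 0.0548, limma adjusted p = 1.15e-06) in Dgcr8 KO, a 2.00-fold decrease. In Dicer KO it was -1.23 (SE 0.0548, limma adjusted p = 2.06e-07), a 2.35-fold decrease. This was the largest change against WT among the 56 members. Lamb1 was also higher in Dgcr8 KO than in Dicer KO, by 0.24 (limma adjusted p = 0.012), a difference that left the threshold without Dicer KO replicate 2 or when each array was centred on its median.

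Lamb2, named after its values were seen, had log2 levels of 8.04, 8.02 and 8.01 in the WT samples, 8.94, 8.93 and 8.88 in those of Dgcr8 KO and 8.97, 8.89 and 8.95 in those of Dicer KO. Every array of each mutant lay above every WT array, and the mutants overlapped with each other. It rose 1.86-fold in Dgcr8 KO (log2 ratio 0.89, SE 0.045, limma adjusted p = 7.15e-07) and 1.89-fold in Dicer KO (0.92, SE 0.045, limma adjusted p = 3.72e-07). Between the mutants its log2 ratio was -0.02 (SE 0.045, limma adjusted p = 0.776). The other beta chain, Lamb3, a chain of epithelial laminins, exceeded its WT level in Dicer KO by 0.28 (limma adjusted p = 0.0462). Its WT levels spread from 6.33 to 6.66, and the call was lost in 13 of 23 alternatives. In Dgcr8 KO its ratio was 0.23 (limma adjusted p = 0.104). The ratios of Lamb1 and Lamb2 against WT kept their direction and their calls in all 23 alternatives, with Lamb1 between -1.03 and -0.94 in Dgcr8 KO and between -1.27 and -1.19 in Dicer KO.

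The sequences just before the annotated starts of the beta chains that moved apart, and of Lama5, are shown because these 3 laminins differ in how they moved and have an upstream sequence in the table used. Each is the part of the RefSeq promoter window, of 300 bases, that lies before every annotated transcript of the gene in build GRCm38.p6, written 5′ to 3′ on the gene's strand, with capitals marking the GC box (GGGCGG, or CCGCCC on the other strand) and the CCAAT box (CCAAT, or ATTGG on the other strand).
Lamb1 (chr12:31265043-31265145, plus strand): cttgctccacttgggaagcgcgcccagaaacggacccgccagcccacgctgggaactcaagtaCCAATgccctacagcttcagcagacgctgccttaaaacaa
Lamb2 (chr9:108479612-108479846, plus strand): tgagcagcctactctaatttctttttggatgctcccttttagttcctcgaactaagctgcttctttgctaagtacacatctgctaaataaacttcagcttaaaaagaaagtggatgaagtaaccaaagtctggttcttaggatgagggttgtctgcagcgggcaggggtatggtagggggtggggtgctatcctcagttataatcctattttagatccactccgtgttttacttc
Lama5 (chr2:180225905-180226109, minus strand): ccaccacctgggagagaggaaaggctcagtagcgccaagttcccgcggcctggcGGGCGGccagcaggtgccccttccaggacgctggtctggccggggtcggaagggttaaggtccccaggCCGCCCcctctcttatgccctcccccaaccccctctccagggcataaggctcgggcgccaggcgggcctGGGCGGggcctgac
The Lamb1 piece, with 58.3% G and C, holds 1 CCAAT box and no GC box. The Lamb2 piece, with 43% G and C and 3 CG dinucleotides, holds neither. The Lama5 piece, with 71.7% G and C and 13 CG dinucleotides, holds 3 GC boxes. None of these 3 pieces holds TATAAA on either strand. The pieces are shorter than the windows, which run on past the start: the whole Lamb1 window, with 63.7% G and C, holds 2 GC boxes and the whole Lama5 window 4, while that of Lamb2 holds none. Windows were found for 40 of the 54 member genes, 44 windows in all. Over whole windows, a GC box on either strand was in 59.1% of them and in 35.7% of all 32851 windows, a CCAAT box in 31.8% and 37.4%, and TATAAA in 11.4% and 13.6%. The median share of G and C was 59.5% over the member windows and 52.7% over all. These are matches of letters only, and no binding was measured.

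Lamc1, the gamma chain of most laminins, rose in both mutants, more in Dicer KO. Its log2 levels were 10.70, 10.83 and 10.81 in the WT samples, 11.45, 11.48 and 11.41 in those of Dgcr8 KO and 11.69, 11.67 and 11.62 in those of Dicer KO. The 3 groups did not overlap. The rise was 1.59-fold in Dgcr8 KO (log2 ratio 0.67, SE 0.0513, limma adjusted p = 8.74e-06) and 1.84-fold in Dicer KO (0.88, SE 0.0513, limma adjusted p = 1.07e-06). The ratio between the mutants was -0.21 (limma adjusted p = 0.0142), and this call was lost without Dgcr8 KO replicate 3 or without Dicer KO replicate 1. Lamc3, a gamma chain with a narrower distribution, was not called, with ratios of -0.08 in Dgcr8 KO against -0.14 in Dicer KO.

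Among alpha chains, which carry the main sites for cell receptors, Lama3 moved in opposite directions in the mutants and Lama5 rose in Dgcr8 KO. Lama3, the alpha chain of the laminins of skin and other epithelia, also named after its values were seen, had log2 levels of 6.46, 6.46 and 6.42 in the WT samples, 7.22, 6.97 and 7.0 in those of Dgcr8 KO and 6.10, 6.15 and 6.04 in those of Dicer KO. All Dgcr8 KO arrays lay above WT and all Dicer KO arrays lay below. It rose 1.53-fold in Dgcr8 KO (log2 ratio 0.62, SE 0.0688, limma adjusted p = 9.61e-05) and fell 1.27-fold in Dicer KO (-0.35, limma adjusted p = 0.00303). Between the mutants the log2 ratio was 0.96 (limma adjusted p = 1.33e-05), a 1.95-fold difference and the largest between the mutants among the members.

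Lama5, the alpha chain that is widespread in basement membranes from the early embryo to the adult, had log2 levels of 10.09, 10.04 and 10.12 in the WT samples, 10.33, 10.40 and 10.45 in those of Dgcr8 KO and 10.02, 10.03 and 10.09 in those of Dicer KO. The Dgcr8 KO arrays lay above the others, and the WT and Dicer KO arrays overlapped. Its log2 ratio was 0.32 (SE 0.0496, limma adjusted p = 0.000835) in Dgcr8 KO, -0.04 (SE 0.0496, limma adjusted p = 0.615) in Dicer KO and 0.35 (limma adjusted p = 0.000807) between the mutants. Lama1, the alpha chain of the embryo's first laminin, had log2 levels of 8.87, 8.90 and 8.92 in the WT samples, 9.0, 8.99 and 8.93 in those of Dgcr8 KO and 8.86, 8.83 and 8.82 in those of Dicer KO. The groups did not overlap, but the differences were small: the log2 ratios against WT were 0.08 (limma adjusted p = 0.225) in Dgcr8 KO and -0.06 (limma adjusted p = 0.322) in Dicer KO. The ratio between the mutants, 0.14 (limma adjusted p = 0.0463), was called and lost its call in 15 of 23 alternatives. Lama2, the main alpha chain of muscle, and Lama4, that of blood vessels, were not called, with ratios of -0.01 and 0.17 in Dgcr8 KO against -0.14 and 0.16 in Dicer KO.

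Over the 10 laminins, 4 rose and 1 fell in Dgcr8 KO, 3 rose and 2 fell in Dicer KO, and 4 were higher and 1 lower when Dgcr8 KO was set against Dicer KO. These are 40% and 10%, 30% and 20%, and 40% and 10% of the laminins, where 15.7% and 17.3%, 17.8% and 19.1%, and 11.2% and 13.4% of all clusters were called, so the share that fell in Dicer KO was near the background. Their median log2 ratios in these comparisons were 0.20, -0.05 and 0.10. Of the chains that pair as Lama5, Lamb1 and Lamc1, the beta chain thus fell in both mutants while the gamma chain rose in both. Protein and assembled trimers were not measured here.

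**Figure D2:**
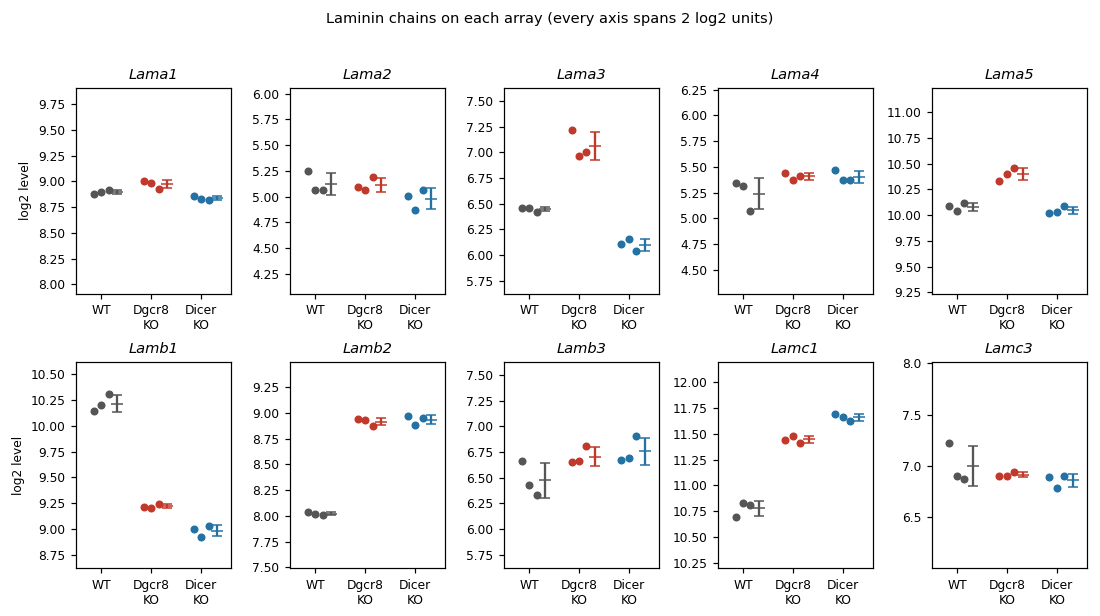
Log2 level of each laminin chain on the 3 arrays of each genotype (points), with the mean and SD beside them; every axis spans 2 log2 units, and levels of different chains cannot be compared. The mutant arrays of Lamb1 lie at 9.24 or lower and the WT arrays at 10.14 or higher, those of Lamb2 and Lamc1 lie above WT, and those of Lama3 lie on opposite sides of WT.

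Of the 8 basement membrane collagens, 1 rose in Dgcr8 KO and 3 rose in Dicer KO, none fell in either, and 1 had a lower level in Dgcr8 KO cells than in Dicer KO cells. Of all clusters, 15.7% rose in Dgcr8 KO against 17.8% in Dicer KO, and 13.4% were lower between the mutants, so that the single calls in Dgcr8 KO and between the mutants, 12.5% of the 8 each, were near the background, while the 3 in Dicer KO were 37.5%. Their median ratios were 0.04 in Dgcr8 KO against -0.07 in Dicer KO. Col18a1, whose end fragment is endostatin, had log2 levels of 10.12, 10.14 and 10.26 in the WT samples, 10.37, 10.38 and 10.45 in those of Dgcr8 KO and 10.56, 10.47 and 10.50 in those of Dicer KO. The 3 groups did not overlap. Its log2 ratio was 0.23 (SE 0.0538, limma adjusted p = 0.00932) in Dgcr8 KO, 0.33 (SE 0.0538, limma adjusted p = 0.000948) in Dicer KO and -0.10 (limma adjusted p = 0.197) between them. The call in Dgcr8 KO was lost with SAM and where a 1.5-fold change was required. Col15a1, its closest relative, had ratios of -0.05 and -0.06 against WT and was not called.

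Type IV collagen is built from 6 chains, and the pair found in all basement membranes, Col4a1 and Col4a2, rose in Dicer KO. The genes of this pair lie head to head on chromosome 8, and their RefSeq promoter windows share 78 bases. Col4a1 had log2 levels of 7.68, 7.65 and 7.73 in the WT samples, 7.80, 7.76 and 7.78 in those of Dgcr8 KO and 7.82, 7.84 and 7.87 in those of Dicer KO. The groups did not overlap, and the log2 ratios were 0.09 (SE 0.0433, limma adjusted p = 0.144) in Dgcr8 KO and 0.16 (SE 0.0433, limma adjusted p = 0.018) in Dicer KO, a 1.11-fold increase that lost its call in 7 of 23 alternatives. Col4a2 had log2 levels of 7.38, 7.43 and 7.49 in the WT samples, 7.49, 7.55 and 7.49 in those of Dgcr8 KO and 7.74, 7.64 and 7.77 in those of Dicer KO. Every Dicer KO array lay above all others, while WT and Dgcr8 KO overlapped. Its log2 ratio was 0.28 (SE 0.0528, limma adjusted p = 0.00218) in Dicer KO, a 1.22-fold increase, 0.07 (limma adjusted p = 0.349) in Dgcr8 KO and -0.21 (limma adjusted p = 0.0185) between the mutants. The last call was lost without either of Dgcr8 KO replicates 1 and 3 or Dicer KO replicates 1 and 3.

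The other 4 type IV chains, restricted in the body to kidney, lung, eye, smooth muscle and similar sites, were called in none of the 3 comparisons. Col4a3, which joins Col4a4 and Col4a5 in the filter of the kidney, had log2 levels of 6.53, 6.40 and 6.41 in the WT samples, 6.57, 6.38 and 6.61 in those of Dgcr8 KO and 6.40, 6.41 and 6.30 in those of Dicer KO. Col4a4 had log2 levels of 6.61, 6.57 and 6.32 in the WT samples, 6.46, 6.39 and 6.59 in those of Dgcr8 KO and 6.45, 6.40 and 6.44 in those of Dicer KO. For both, the groups overlapped. The X-linked Col4a5 had log2 levels of 6.41, 6.32 and 6.31 in the WT samples, 6.47, 6.25 and 6.37 in those of Dgcr8 KO and 6.16, 6.08 and 6.34 in those of Dicer KO. Its X-linked neighbour Col4a6, which joins Col4a5 under smooth muscle, had log2 levels of 6.22, 6.08 and 6.23 in the WT samples, 6.17, 5.86 and 6.08 in those of Dgcr8 KO and 6.04, 6.02 and 6.08 in those of Dicer KO. The groups of both overlapped as well. The log2 ratios of these 4 chains against WT ran from -0.14 (Col4a6) to 0.07 (Col4a3) in Dgcr8 KO and from -0.15 (Col4a5) to -0.07 (Col4a4) in Dicer KO.

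None of the 11 fibrillar collagens was called in Dgcr8 KO relative to WT, and 1, Col5a1, was called lower in Dicer KO. At an unadjusted p under 0.05, limma gave 0 of the 11 in Dgcr8 KO, 4 in Dicer KO and 3 between the mutants. The share of all clusters at that threshold was not computed, so these counts cannot be set against a background. SAM called 0 in each mutant relative to WT, and 4 higher in Dgcr8 KO than in Dicer KO where limma called 2. Of all clusters, SAM called 19.5% and limma 11.2% higher between the mutants. The 1 that limma called in Dicer KO is 9.09% of the list, where 19.1% of all clusters fell. In Dgcr8 KO, 15.7% of all clusters rose and 17.3% fell. Their ratios ran from -0.10 to 0.13 in Dgcr8 KO (median -0.03) and from -0.26 to -0.03 in Dicer KO (median -0.18), with all 11 below 0 in Dicer KO. Over all counted clusters the median in Dicer KO was -0.06. Of the 11, 10 were highest of all 9 arrays on WT replicate 1 and 6 were lowest on Dicer KO replicate 2. Without WT replicate 1 the medians were 0.05 in Dgcr8 KO against -0.08 in Dicer KO, where those of all counted clusters were 0.01 and -0.04. No fibrillar collagen was then called in either mutant relative to WT. The part of these 2 arrays in the lower values of Dicer KO was not tested apart from leaving them out.

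Type I collagen, the main fibril of bone, skin and tendon, is made from Col1a1 and Col1a2. Col1a1 had log2 levels of 7.48, 7.19 and 7.17 in the WT samples, 7.35, 7.04 and 7.32 in those of Dgcr8 KO and 7.12, 6.97 and 7.04 in those of Dicer KO. Col1a2 had log2 levels of 7.35, 7.03 and 7.03 in the WT samples, 7.16, 6.92 and 7.10 in those of Dgcr8 KO and 7.03, 6.77 and 7.04 in those of Dicer KO. For both chains WT replicate 1 was the highest array and Dicer KO replicate 2 the lowest, and WT overlapped with Dgcr8 KO. The log2 ratios of Col1a1 were -0.05 (SE 0.105, limma adjusted p = 0.799) in Dgcr8 KO and -0.24 (SE 0.105, limma adjusted p = 0.11) in Dicer KO. Those of Col1a2 were -0.08 (SE 0.111, limma adjusted p = 0.672) and -0.19 (SE 0.111, limma adjusted p = 0.225). Neither chain passed the test.

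Type V collagen sets the diameter of type I fibrils. Col5a1 had log2 levels of 7.47, 7.18 and 7.19 in the WT samples, 7.29, 7.34 and 7.35 in those of Dgcr8 KO and 7.01, 6.89 and 7.15 in those of Dicer KO. The Dicer KO arrays lay below the others, with a log2 ratio of -0.26 relative to WT (limma adjusted p = 0.0487). That call was lost in 18 of 23 alternatives, among them leaving out WT replicate 1, after which the ratio was -0.17. Between the mutants, Col5a1 (0.31, limma adjusted p = 0.0348) and Col5a3 (0.35, limma adjusted p = 0.0259) were higher in Dgcr8 KO, and without Dicer KO replicate 2 neither was called. The remaining fibrillar chains, Col2a1, Col3a1, Col5a2, Col11a1, Col11a2, Col24a1 and Col27a1, were called in no comparison.

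**Figure D3:**
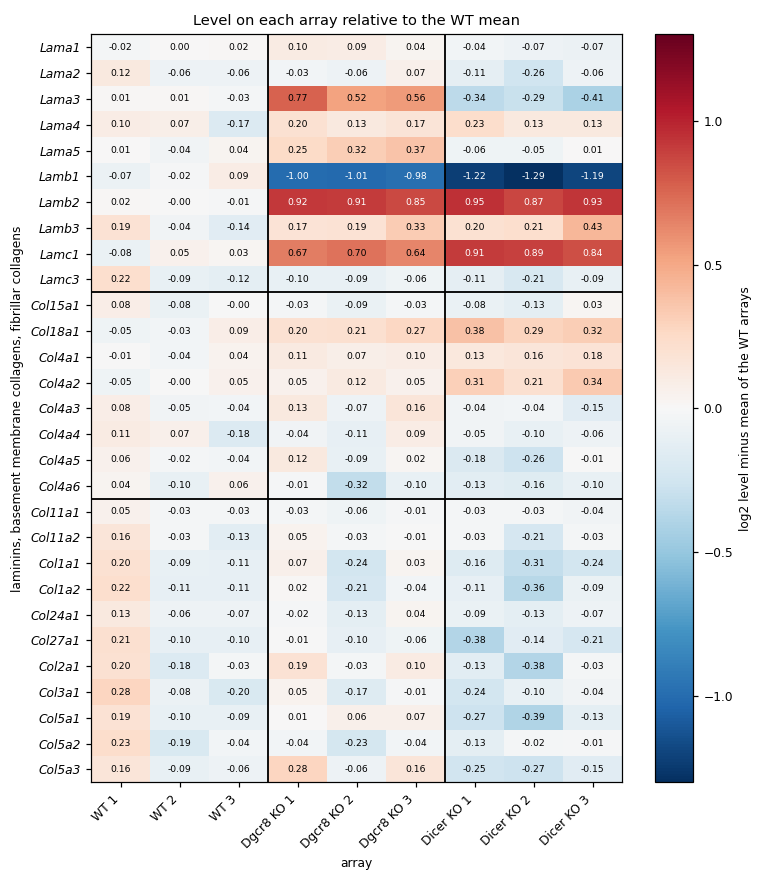
Log2 level on each array minus the mean of the 3 WT arrays, for laminins (top), basement membrane collagens (middle) and fibrillar collagens (bottom). In the fibrillar block WT replicate 1 is above the WT mean for all 11 chains, while the strong colours of Lamb1, Lamb2, Lamc1 and Lama3 are alike on all 3 arrays of a mutant.

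The 27 collagens of other types held 2 clusters called lower in Dgcr8 KO, both of Col6a5, and 6 called lower in Dicer KO, with none called higher in either. Of all clusters, 17.3% and 19.1% fell and 15.7% and 17.8% rose, so the share that fell in Dicer KO was near the background. Col6a5, a chain of the beaded filaments that link cells to other matrix, had log2 levels in its brighter cluster of 7.15, 7.03 and 7.24 in the WT samples, 6.68, 6.96 and 6.65 in those of Dgcr8 KO and 6.62, 6.68 and 6.77 in those of Dicer KO. All mutant arrays lay below WT, with log2 ratios of -0.38 (SE 0.0907, limma adjusted p = 0.00972) in Dgcr8 KO and -0.45 (SE 0.0907, limma adjusted p = 0.00338) in Dicer KO. In the second cluster the ratios were -0.30 (limma adjusted p = 0.0485) and -0.30 (limma adjusted p = 0.0436), and both calls of that cluster were lost without WT replicate 1. Of 23 alternatives, 15 lost its call in Dgcr8 KO and 11 its call in Dicer KO. The chains of the common type VI trimer, Col6a1, Col6a2 and Col6a3, were not called, with ratios from -0.04 to 0.04 in Dgcr8 KO and from -0.17 to -0.10 in Dicer KO.

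The other collagens called lower in Dicer KO were Col8a1, a network-forming chain of vessel walls and cornea (-0.38, limma adjusted p = 0.0483), Col9a2, a FACIT chain of cartilage (-0.22, limma adjusted p = 0.0263), Col12a1, a FACIT chain of tendon and other dense tissue (-0.22, limma adjusted p = 0.0493), and Col28a1 (-0.26, limma adjusted p = 0.0301). Each of these 4 calls was lost without WT replicate 1, and each was lost without Dicer KO replicate 2. Col9a2 had log2 levels of 7.84, 7.62 and 7.70 in the WT samples, 7.84, 7.78 and 7.83 in those of Dgcr8 KO and 7.42, 7.52 and 7.57 in those of Dicer KO. The Dicer KO samples lay below all others. It was higher in Dgcr8 KO than in Dicer KO by 0.31 (SE 0.0656, limma adjusted p = 0.0074), a call kept in all alternatives except a required 1.5-fold change. The 9 FACIT clusters, which also included Col9a1, Col9a3, Col14a1, Col16a1, Col19a1, Col20a1 and Col22a1, had ratios from -0.14 to 0.22 in Dgcr8 KO and from -0.25 to 0.04 in Dicer KO. The remaining network-forming chains, Col8a2 of the cornea and Col10a1 of growth plate cartilage, and Col26a1 were called in no comparison, nor were Col6a4 and both clusters of Col6a6. Col7a1, the anchoring fibril chain of skin, had ratios of -0.07 and -0.10 against WT, and the transmembrane chains Col13a1, Col17a1, Col23a1 and Col25a1 were called in no comparison, with ratios from -0.16 to 0.14 in Dgcr8 KO and from -0.20 to 0.08 in Dicer KO.

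The 3 arrays of a genotype differed among themselves in these genes. WT replicate 1 was the highest of the 9 arrays for 27 of the 56 members, or 48.2%, against 19.7% of all counted clusters, and Dicer KO replicate 2 was the lowest for 21, or 37.5%, against 15.3%. Without WT replicate 1, the members lower in Dicer KO went from 9 to 3 (Lamb1, Lama3 and 1 Col6a5 cluster), or 5.36% against 18.6% of all clusters. The members higher in Dgcr8 KO went from 5 to 8 with Lamb3, Col14a1 and Col17a1 added, or 14.3% against 15.8%. Those higher in Dgcr8 KO than in Dicer KO went from 7 to 10, or 17.9% against 13%. Without Dicer KO replicate 2, the members lower in Dicer KO were also 3, or 5.36% against 15.5% of all clusters. Those higher in Dgcr8 KO than in Dicer KO went from 7 to 3, or 5.36% against 8.19%. Leaving out Dgcr8 KO replicate 1 or 3, or Dicer KO replicate 1, took the last count from 7 to 4. That is 7.14%, against 8.31%, 8.6% and 8.27% of all clusters in that order. Leaving out Dgcr8 KO replicate 2 took the count to 11 (19.6%, against 11.3% of all clusters).

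**Figure D4:**
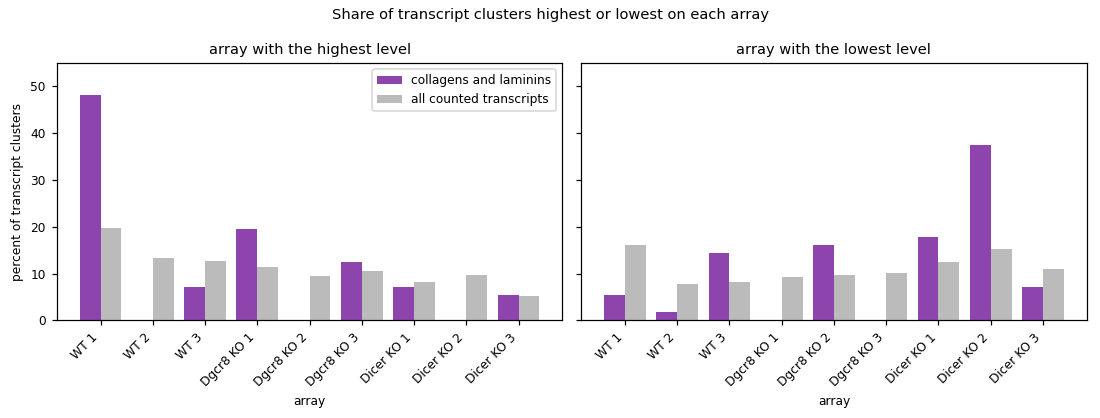
Percent of the 56 collagen and laminin clusters, and of all counted clusters, that had their highest (left) or lowest (right) log2 level of the 9 arrays on each array. WT replicate 1 holds the highest level of 48.2% of the members and Dicer KO replicate 2 the lowest of 37.5%, both more than over all clusters.

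Laminin and collagen sheets hold other proteins, and Nid1, Sparc and Fbln1 among them rose in both mutants. Of 18 other basement membrane genes, 8 rose and 1 fell in Dgcr8 KO (median log2 ratio 0.05), 7 rose and 3 fell in Dicer KO (median 0.04), and 5 were higher and 2 lower when Dgcr8 KO was set against Dicer KO. As shares of the list these were 44.4% and 5.56%, 38.9% and 16.7%, and 27.8% and 11.1%, against 15.7% and 17.3%, 17.8% and 19.1%, and 11.2% and 13.4% of all clusters. Nid1, the nidogen that binds the laminin gamma 1 chain and type IV collagen, had log2 levels of 8.60, 8.74 and 8.75 in the WT samples, 10.51, 10.61 and 10.60 in those of Dgcr8 KO and 10.38, 10.36 and 10.36 in those of Dicer KO, with no overlap between WT and the mutants. It rose 3.67-fold in Dgcr8 KO (log2 ratio 1.88, SE 0.0537, limma adjusted p = 3.02e-08) and 3.18-fold in Dicer KO (1.67, SE 0.0537, limma adjusted p = 3.31e-08). Sparc, a collagen-binding matricellular protein, rose by 1.02 and 1.69 on the log2 scale (limma adjusted p = 2.95e-07 and 1.64e-08). Fbln1, a fibulin of basement membranes and elastic fibres, rose by 0.96 and 0.73 (limma adjusted p = 1.19e-06 and 4.71e-06). Frem2, of the complex that anchors embryonic epithelia, fell, with ratios of -0.61 and -1.36 (limma adjusted p = 7.45e-05 and 3.51e-07).

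Enzymes and chaperones that modify or export procollagen gave more increases than decreases against WT. Of 25 measured, 13 rose and 5 fell in Dgcr8 KO (median 0.21), 11 rose and 5 fell in Dicer KO (median 0.23), and 5 were higher and 6 lower when Dgcr8 KO was set against Dicer KO. Pcolce2, an enhancer of procollagen C-proteinase, rose by 1.08 in Dgcr8 KO against 1.28 in Dicer KO (limma adjusted p = 4.41e-07 and 9.10e-08). P3h4, a partner of the lysyl hydroxylation complex in the endoplasmic reticulum, rose by 0.94 and 1.02 (limma adjusted p = 3.16e-06 and 1.35e-06), and P3h1, a prolyl 3-hydroxylase, rose by 0.73 and 0.50 (limma adjusted p = 4.11e-06 and 4.11e-05). Plod3, which hydroxylates and glycosylates collagen lysines, rose by 0.56 and 1.01 (limma adjusted p = 0.000147 and 2.46e-06). No count over the list was tested against other genes, and 15.7% of all clusters rose and 17.3% fell in Dgcr8 KO, with 17.8% and 19.1% in Dicer KO. The list's own shares were 52% and 20%, then 44% and 20%. Between the mutants they were 20% and 24%, where 11.2% of all clusters were higher and 13.4% lower.

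Among 13 receptors for collagen and laminin, 3 rose and 3 fell in Dgcr8 KO, 3 rose and 2 fell in Dicer KO, and 2 were higher and 4 lower when Dgcr8 KO was set against Dicer KO. Against WT these were 23.1% and 23.1% of the list in Dgcr8 KO, where 15.7% and 17.3% of all clusters were called. In Dicer KO they were 23.1% and 15.4%, where 17.8% and 19.1% were, so the list's shares against WT were near those of all clusters. Between the mutants, 15.4% were higher and 30.8% lower, where 11.2% and 13.4% of all clusters were, so the lower share stood above the background. Itga3, an integrin alpha chain that binds laminins, had log2 levels of 10.06, 10.05 and 10.05 in the WT samples, 8.82, 8.86 and 8.87 in those of Dgcr8 KO and 10.13, 10.09 and 10.12 in those of Dicer KO. It was 2.30-fold lower in Dgcr8 KO than in WT (log2 ratio -1.20, limma adjusted p = 8.56e-08), with 0.06 in Dicer KO (limma adjusted p = 0.28) and -1.26 between the mutants (limma adjusted p = 1.49e-07). Ddr2, a receptor kinase for fibrillar collagen, had log2 levels of 5.93, 5.92 and 5.86 in the WT samples, 7.09, 7.25 and 7.01 in those of Dgcr8 KO and 6.20, 5.92 and 6.06 in those of Dicer KO. It rose 2.31-fold in Dgcr8 KO (log2 ratio 1.21, limma adjusted p = 4.13e-06) and was higher there than in Dicer KO by 1.05 (limma adjusted p = 2.38e-05). Itga6, another laminin-binding chain, rose in Dicer KO by 0.78 (limma adjusted p = 1.40e-05), against 0.05 in Dgcr8 KO (limma adjusted p = 0.631), with a ratio between the mutants of -0.73 (limma adjusted p = 5.99e-05). Its beta partners Itgb1 and Itgb4 rose in both mutants, by 0.36 and 0.65 in Dgcr8 KO against 0.72 and 0.77 in Dicer KO.

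Of 10 measured matrix proteases and inhibitors, 1 rose and 1 fell in Dgcr8 KO, 3 rose and 2 fell in Dicer KO, and 2 were higher and 2 lower when Dgcr8 KO was set against Dicer KO. These were 10% and 10% of the list in Dgcr8 KO, below the 15.7% and 17.3% of all clusters. In Dicer KO they were 30% and 20%, where 17.8% and 19.1% of all clusters were called. Between the mutants they were 20% and 20%, where 11.2% and 13.4% were. Timp3, a protease inhibitor bound to the matrix, rose 3.29-fold in Dicer KO (log2 ratio 1.72, limma adjusted p = 1.36e-07), with 0.12 in Dgcr8 KO (limma adjusted p = 0.276) and -1.60 between the mutants (limma adjusted p = 7.43e-07). Mmp2, a gelatinase that cleaves type IV collagen, was 2.03-fold lower in Dicer KO (log2 ratio -1.02, limma adjusted p = 1.42e-06), with 0.11 in Dgcr8 KO (limma adjusted p = 0.251) and 1.13 between the mutants (limma adjusted p = 2.96e-06). Timp1 rose by 0.55 and 1.18, and Timp2, an inhibitor that also takes part in activating Mmp2, had ratios of -0.51 and -0.84, called lower in both mutants. Without WT replicate 1 the counts in these 4 lists against WT moved by no more than 2 genes in either direction.

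**Figure D5:**
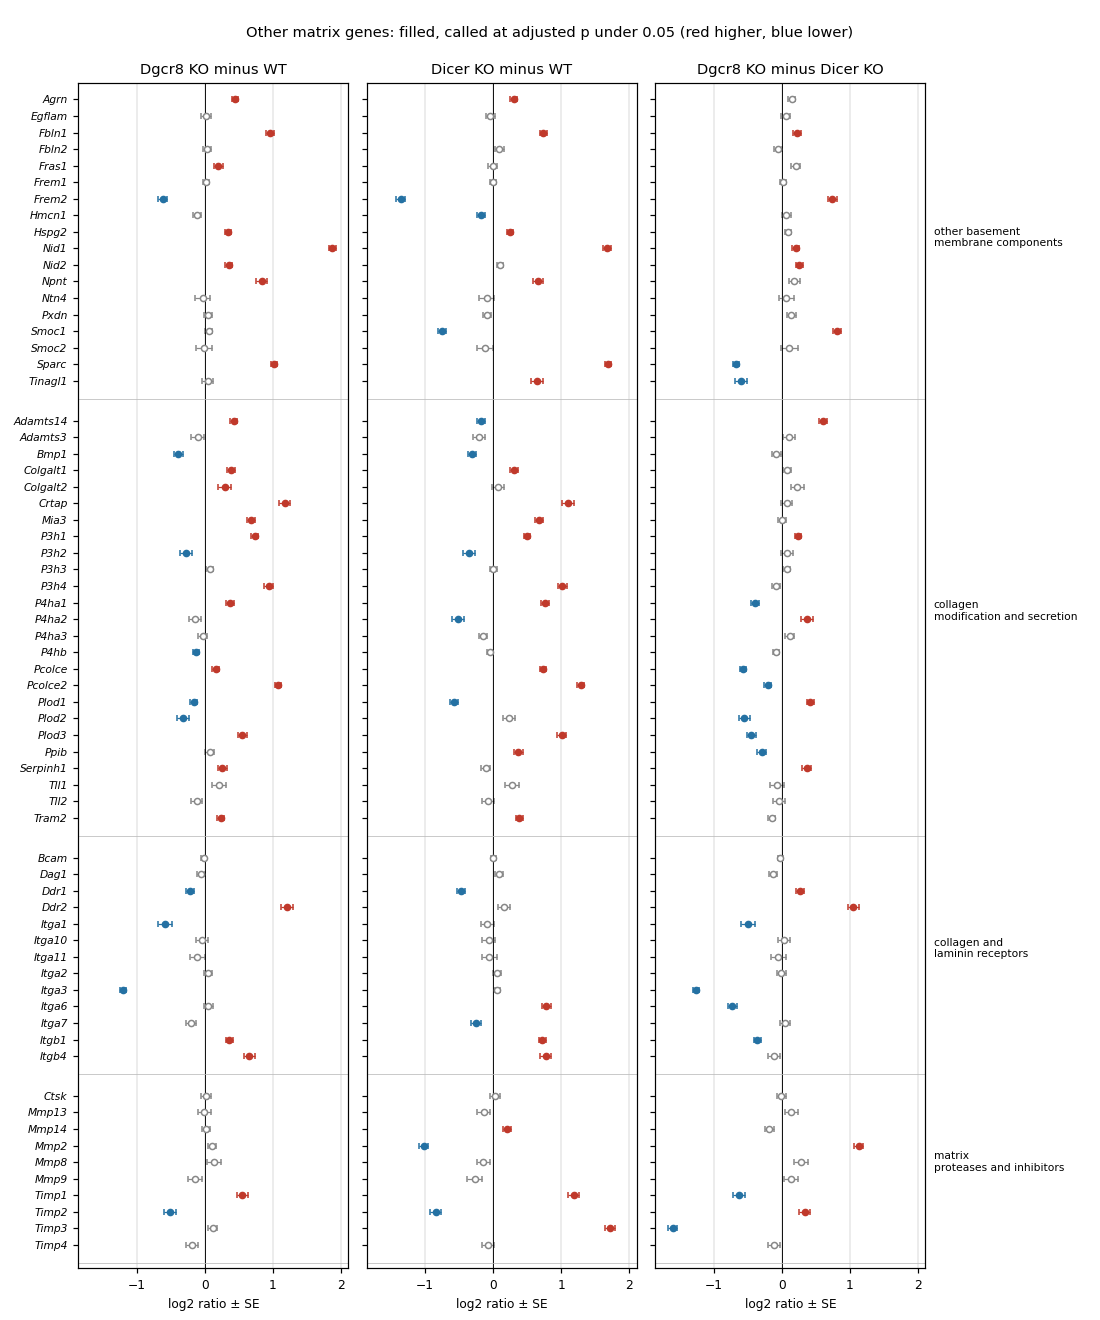
Log2 ratio with its SE for the other basement membrane genes, the collagen modification and secretion genes, the receptors and the proteases with their inhibitors, with filled points for genes called by limma at an adjusted p under 0.05. Nid1 and Sparc lie furthest to the right among the basement membrane genes in both mutants, and Itga3, Ddr2, Timp3 and Mmp2 each lie far from 0 in 1 mutant and near 0 in the other.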

How the data were processed

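Total RNA of 9 ES cell cultures (3 WT, 3 Dgcr8 KO, 3 Dicer KO) was hybridised to Affymetrix mouse gene 1.0 ST arrays. The deposited values were log2 levels per transcript cluster, normalised between arrays by the authors with RMA according to the methods, while the submitters' processing notes name GCRMA. Software versions: not given in the sources used here. Both methods even out differences in overall signal between arrays, and GCRMA also models probe affinity, so a ratio of a dim transcript may depend on which was used. Arrays have no read depth, and their number limits the precision. The table holds no background values, so a dim transcript cannot be told from 1 that was not detected. Of the members, 26 of 46 collagens and 4 of 10 laminins, Lama3 among them, had mean levels below the median of all counted clusters (6.92).

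Symbols came from GEO's platform annotation. Of 35557 clusters, 22999 were counted (21457 with 1 symbol, 1542 with several), after leaving out 12147 without a symbol, 326 that named only miRNAs, 7 mitochondrial and 78 on the Y chromosome. No column of values lacked a sample (0 of them). Groups were taken from the sample labels. A linear model over all 9 arrays was fitted with limma 3.58.1 in R 4.3.3 (6 residual degrees of freedom), with the Benjamini-Hochberg adjustment of p taken across the 22999 clusters and calls at an adjusted p under 0.05. The script was tested on simulated data. The methods' own test, SAM, at a false discovery rate of 5% with all 20 relabellings, was 1 of 23 alternatives. The others changed the scaling, filter, threshold, fit or arrays used.

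The members, the structural groups, the other gene lists and the alternatives were chosen with earlier results of these data known. Values on every array were given for members called with an absolute log2 ratio of at least 1, for Lama1, Lama5, Lamb1, Lamc1 and the type IV and type I collagen chains. Lamb2, Lama3, Col18a1, Col5a1, Col6a5, Col9a2, Nid1, Itga3 and Ddr2 were given the same way after their values were seen. From the 4 other lists, the 3 called genes with the smallest adjusted p against WT in each mutant were named. A gene of those lists with several clusters was represented by the brightest. Promoter windows were RefSeq's, in build GRCm38.p6. Sequence of the remaining 14 member genes, among them Lamc1 and Lama1, was not used here.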

Additional observations from a re-analysis of the deposited data

Results flagged for a closer look

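Lama3, a laminin alpha chain of epithelia, stood out because it was called in opposite directions in the mutants relative to WT, at 0.62 for Dgcr8 KO against -0.35 for Dicer KO on the log2 scale, and because the difference between the mutants, 0.96, was itself called (limma adjusted p = 1.33e-05). All 3 Dgcr8 KO arrays lay above, and all 3 Dicer KO arrays below, the 3 WT arrays. Its mean level, 6.54, was below the median of all counted clusters, 6.92.

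Adamts14, a protease that removes the amino-terminal propeptide of procollagens, met the same condition, at 0.43 for Dgcr8 KO (limma adjusted p = 0.000163) against -0.18 for Dicer KO (limma adjusted p = 0.0222) and a difference between the mutants of 0.61 (limma adjusted p = 3.92e-05). It was named after its values were seen.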

How the results depend on the processing

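Of 24 counts of calls and 76 ratios of named genes under 23 alternatives, no ratio reversed. The ratios of Lamb1, Lamb2 and Lamc1 against WT, and those of Lama3 in Dgcr8 KO and between the mutants, were called in every alternative, and Lama3 in Dicer KO lost its call only where a 1.5-fold change was required. The counts that moved by over 1.5 times were mostly those of small differences, and their causes were not tested. Counts are given for all 56 members unless said otherwise, with "direct" for Dgcr8 KO against Dicer KO.

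The 1 fibrillar collagen lower in Dicer KO fell to 0 with SAM, with a fit of only 2 genotypes, with every cluster of the table, with median centring, repeated quantile normalisation, cyclic loess, robust fitting, array weights, an adjusted p under 0.01 and a 1.5-fold minimum, and without WT replicate 1 and Dgcr8 KO replicate 2 together. Members lower in Dicer KO, 9 of 56, numbered 5 with only 2 genotypes, 4 with every cluster, 3 with median centring, 5 with quantile normalisation, 4 with cyclic loess, 3 at 0.01, 1 at 1.5-fold and 5 without that pair of arrays. The shares of all clusters lower in Dicer KO were, in the same order, 17.8%, 13.2%, 14.5%, 20.5%, 16.5%, 12.6%, 3.69% and 19.6%. Members higher in Dgcr8 KO, 5, numbered 8 with cyclic loess, 9 with array weights, 3 at 1.5-fold and 10 without the pair, where 1 fibrillar collagen was also higher. Of all clusters, 18.9%, 16.7%, 5.51% and 17.2% were higher in Dgcr8 KO in those settings. Members lower in Dgcr8 KO numbered 1, and higher in Dicer KO 2, at 1.5-fold, where 3.54% and 7.17% of all clusters were. Direct and higher, 7, were 18 with SAM, 4 with every cluster, 4 with median centring, 17 with array weights, 11 with the replicate block, 3 at 0.01, 1 at 1.5-fold and 17 without the pair (shares of all clusters under these settings ran from 2.21% to 19.5%). Direct and lower were 0 at 0.01 and at 1.5-fold, where 8.6% and 2.73% of all clusters were. Fibrillar collagens direct and higher, 2, were 4 with SAM, 0 with every cluster, 1 with median centring, 1 with quantile normalisation, and 0 at 0.01 and at 1.5-fold.

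Of the 18 basement membrane members, direct and higher were 2 with median centring, 2 at 0.01 and 1 at 1.5-fold, and direct and lower 0 at both. At 1.5-fold, 3 rose in Dgcr8 KO, 2 rose and 1 fell in Dicer KO, where 5.51%, 7.17% and 3.69% of all clusters did. Of the 66 other genes, those lower in Dgcr8 KO, 10, were 5 with SAM, 5 at 0.01 and 2 at 1.5-fold, where 11 rose in Dgcr8 KO, 4 fell in Dicer KO, and 5 were higher and 6 lower directly.

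Leaving out each array in turn gave, for the members, 5 to 8 higher and 2 to 3 lower in Dgcr8 KO, 4 to 7 and 3 to 9 in Dicer KO, and 3 to 11 and 0 to 2 directly. For the basement membrane members it gave 5 to 6 and 1 to 1, 4 to 6 and 2 to 2, and 2 to 4 and 0 to 2. For fibrillar collagens it gave 0 to 0 and 0 to 0, 0 to 0 and 0 to 1, and 0 to 2 and 0 to 0. For the other genes it gave 21 to 25 and 5 to 9, 23 to 25 and 9 to 12, and 11 to 14 and 13 to 15. Over all clusters, the shares higher and lower in Dgcr8 KO were then 14% to 15.8% and 14.5% to 18.5%. In Dicer KO they were 15.6% to 17.7% and 15.5% to 19%, and directly 8.19% to 13% and 10% to 15.5%. Same-numbered arrays correlated between -0.20 and 0.34 in their deviations from group means, and differently numbered arrays between -0.46 and 0.32. These overlapping ranges do not show whether replicate numbers pair the arrays. The replicate block moved no count by over 1.5 times but the members direct and higher, from 7 to 11. The median ratio of the members in Dgcr8 KO changed sign with repeated quantile normalisation (-0.01). Their median in Dicer KO went from -0.13 to -0.07 with cyclic loess. Between the mutants it went from 0.12 to 0.06 with median centring, where the median of all clusters went from 0.03 to -0.02. Transcripts near the low end of the scale limit what small ratios can show.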
